A study of Mus musculus with 21 samples.

Results

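The 36 genes described here encode NRF2, the transcription factor of the antioxidant response, its regulators, and enzymes that make, spend and renew the cell's thiol and peroxide defences. They were listed by gene symbol, with earlier results of these data known, and are 36 of the 45706 gene identifiers in the expression table. RNA was measured in 21 libraries in 7 groups of 3. Microglia, sorted as CD45low CD11b+ cells, came from sham controls, from C57BL/6 wild-type (WT) mice and from Fgg γ390–396A knock-in mice. The knock-in mice carry a fibrinogen γ-chain altered at the site that binds CD11b. The authors describe them as homozygous for the histology and give no zygosity for the mice sequenced. Injured mice were taken 1 d or 7 d following controlled cortical impact (CCI), a model of traumatic brain injury. The study used male mice. Infiltrating myeloid cells, sorted as CD45hi CD11b+ cells and labelled macrophages, came from both genotypes at 1 d post-CCI only. Sham controls were WT mice alone, so no comparison here measures the genotype without injury. Their sample names give no day, and the same sham libraries served as controls at 1 d and 7 d. Each library was made from cells of a pair of brains pooled at random, and the 3 libraries of a group are separate pools.

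NRF2, encoded by Nfe2l2, is held at a low level by Keap1, which presents it for degradation until oxidants or electrophiles modify Keap1's cysteines. Free NRF2 then binds antioxidant response elements and switches on genes for cystine uptake, glutathione and thioredoxin recycling and NADPH supply. Much of this control acts on the NRF2 protein, so the level of Nfe2l2 RNA is not a measure of its activity. In the injured brain, microglia and recruited phagocytes both make reactive oxygen species and need these enzymes to withstand them.

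Library totals ranged from 18896957 to 51875767 counts, with a median of 27001646, and ribosomal RNA took between 43.0% and 58.5% of them. Levels are given as CPM, counts set to a common library total with edgeR's TMM factors and already divided by gene length, so that levels of different genes can be set side by side. A total of 3 counts, taken as the floor, was worth 0.0448 to 0.158 CPM depending on the library, and this covers counting error only. All 36 genes were among the 23815 with at least 5 counts over all libraries, and Nqo1, Gsta3 and Mgst2 had a mean below 1 CPM. Markers of microglia summed to 10000 to 11200 CPM in sham controls, 2740 to 4230 CPM in WT and 4810 to 6230 CPM in Fgg γ390–396A microglia at 1 d, and 345 to 963 CPM in infiltrating cells. In sham replicate 3, neutrophil markers summed to 859 CPM and monocyte markers to 67.3 CPM, against 160 and 251 CPM and 7.39 and 17.8 CPM in the other sham libraries. Genes of the response to cell dissociation summed to 1660 CPM in sham replicate 1 and to 296 and 379 CPM in the others. Counts of genes called are therefore also given without these libraries, and, because the samples are bulk, fewer cells of a type and less RNA per cell cannot be told apart.

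In sham microglia the set spanned levels from 0 to over 200 CPM. Ucp2, an uncoupling protein of the mitochondrial inner membrane, stood at 178, 138 and 217 CPM, and Txnip, the protein that binds and blocks thioredoxin, at 189, 158 and 231 CPM. Nfe2l2 (102, 125 and 158 CPM) and Sod1, the cytosolic copper-zinc superoxide dismutase (109, 128 and 131 CPM), followed, and these 4 genes overlapped in part. At the other end, Srxn1, Xdh and Slc7a11 lay near 1 CPM or below, and Nqo1 and Gsta3 had 1 and 0 counts over the 3 sham libraries. The heat map of all but the lowest 3 genes shows how each library departs from the sham mean.

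**Figure D1:**
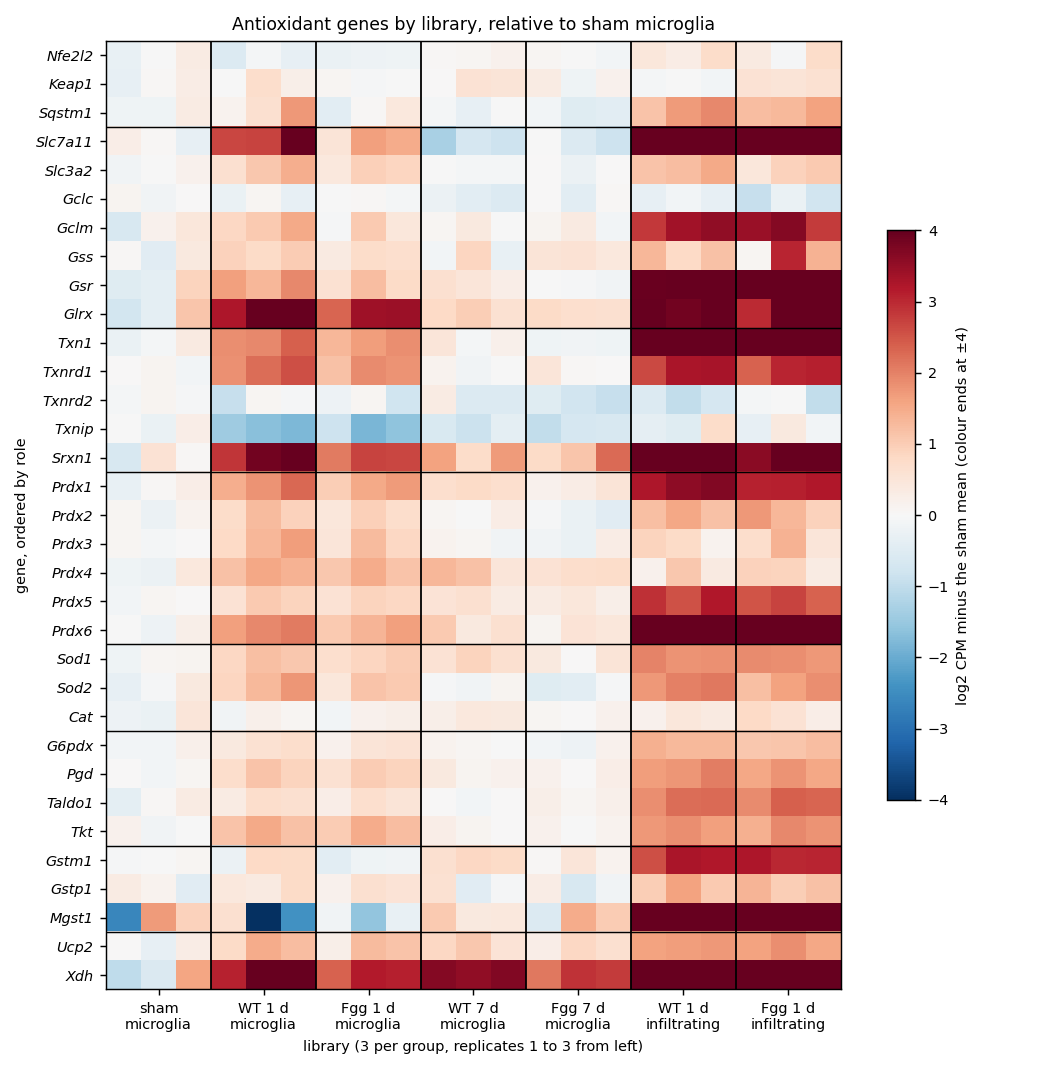
Heat map of 33 genes (rows, ordered by role) in 21 libraries (columns, 3 per group), coloured by log2 CPM minus the mean of the sham libraries, with colours ending at ±4. Red fills most rows of WT and Fgg γ390–396A microglia at 1 d and of infiltrating cells, Txnip is blue at 1 d, and most rows are pale at 7 d.

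The first comparison asks how microglia from WT mice differed from sham microglia at 1 d post-CCI. Of the 36 genes, 22 rose and 1 fell (quasi-likelihood test of edgeR, adjusted p below 0.05 after Benjamini-Hochberg adjustment across all genes tested). That is 63.9% of the set, where 16.7% of all genes were called, 10.7% higher and 5.97% lower, and 30.8% of the 12302 genes with a mean of at least 1 CPM. The 3 injured and 3 sham libraries did not overlap for 24 of the 36 genes, against 33.8% of all genes. The median log2 fold change of the 36 genes was 1.01, against 0.03 for the 12302 genes. The genes that rose carry out cystine import, glutathione and thioredoxin recycling, peroxide and superoxide removal and NADPH supply, while NRF2's own gene and the glutathione transferases were not among them.

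Nfe2l2 (ENSMUSG00000015839, chromosome 2, 75675513 to 75704641 on GRCm38) stood at 86.5, 119 and 101 CPM at 1 d in WT mice. These values overlap the sham libraries, and the log2 fold change of -0.33 (standard error 0.19) had an adjusted p of 0.276. Keap1, the adaptor that marks NRF2 for degradation, had 7.29, 11.9 and 8.63 CPM against 5.8, 7.55 and 9 CPM in sham controls, which also overlap (log2 fold change 0.31, adjusted p = 0.388). Sqstm1, or p62, an autophagy receptor that sequesters Keap1, rose by 0.97 on the log2 scale (adjusted p = 0.0387). It had 40.1, 56.7 and 121 CPM against 32.4, 32.6 and 46.6 CPM, so the call leaned on WT replicate 3, without which the log2 fold change was 0.41 (adjusted p = 0.39).

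Among genes of cystine uptake and glutathione, 5 of 7 rose. Slc7a11 (ENSMUSG00000027737, chromosome 3, 49892526 to 50443614), the light chain of the cystine-glutamate exchanger xCT, had 7.67, 7.71 and 28.9 CPM at 1 d and 1.4, 1.18 and 0.905 CPM in sham controls. Every injured library lay above every sham library, and the rise was 3.67 on the log2 scale (standard error 0.51, adjusted p = 3.24e-05). Slc3a2, the heavy chain that carries xCT to the membrane, rose by 1.08 on the log2 scale. Glrx, a glutaredoxin that reduces glutathionylated proteins, had 82, 160 and 215 CPM against 5.23, 6.64 and 18.9 CPM, again without overlap (log2 fold change 3.89, adjusted p = 7.59e-06). Gsr, which regenerates reduced glutathione, rose by 1.52, and Gclm, the modifier subunit of the enzyme that sets the pace of glutathione synthesis, by 1.09. Gclc, the catalytic subunit of that enzyme, had a log2 fold change of -0.17 (adjusted p = 0.618), and Gss, which completes glutathione, one of 0.88 (adjusted p = 0.259).

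The thioredoxin system held the 2 genes with the smallest adjusted p of the set. Txn1 (ENSMUSG00000028367, chromosome 4, 57943373 to 57956411), the thioredoxin of the cytosol, had 66.3, 68 and 95.7 CPM against 14.8, 17 and 23.2 CPM in sham controls. Its 4.18-fold rise (log2 fold change 2.06, standard error 0.21, adjusted p = 1.82e-06) left a wide gap between the groups. Txnrd1 (chromosome 10, 82833951 to 82897712), the reductase that renews Txn1 with NADPH, had 16.9, 22.7 and 28.7 CPM against 4.78, 5.12 and 4.4 CPM. The groups were apart here as well, by 2.26 on the log2 scale (standard error 0.26, adjusted p = 5.52e-06). Srxn1, the sulfiredoxin that repairs overoxidised peroxiredoxins, had 4.66, 9.34 and 17.8 CPM against 0.351, 0.911 and 0.603 CPM. It had the largest log2 fold change of the called genes, 4.10 (standard error 0.56, adjusted p = 3.12e-05). Txnip (chromosome 3, 96557957 to 96561883) was the single gene that fell, to 71.7, 60.2 and 54.5 CPM, all below the lowest sham library (log2 fold change -1.63, standard error 0.31, adjusted p = 0.0007). The mitochondrial reductase Txnrd2 had a log2 fold change of -0.25 and overlapped between the groups.

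All 6 peroxiredoxins, the thiol peroxidases, rose, by 0.85 (Prdx5) to 1.89 (Prdx6) on the log2 scale, and each was without overlap. Prdx1 had 141, 178 and 251 CPM against 41.3, 52.4 and 61.6 CPM (log2 fold change 1.88, standard error 0.22, adjusted p = 6.25e-06). Both superoxide dismutases rose as well, Sod1 by 1.04 and the mitochondrial Sod2 by 1.33. Catalase (Cat), the peroxisomal enzyme that breaks down hydrogen peroxide, had 30.6, 38.8 and 35.5 CPM against 29.1, 27.7 and 47 CPM, which overlap (log2 fold change 0.02).

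Of 4 pentose phosphate enzymes, the route that supplies NADPH, 3 rose: Tkt by 1.28, Pgd by 0.93 and G6pdx by 0.57 on the log2 scale. Taldo1 had 0.54 (adjusted p = 0.0585). None of the 6 genes of glutathione transfer and quinone reduction was called, with Gstm1 at 0.51, Gstp1 at 0.49 and Mgst1 at -1.65. Mgst1, a membrane-bound transferase, varied widely among both sham (0.128, 3.76 and 2.14 CPM) and injured libraries (1.76, 0 and 0.156 CPM). Ucp2 rose by 1.17, and Xdh, xanthine dehydrogenase, which in its oxidase form makes rather than removes oxidants, by 3.68 (2.67, 5.32 and 7.69 CPM against 0.0956, 0.152 and 0.905 CPM).

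**Figure D2:**
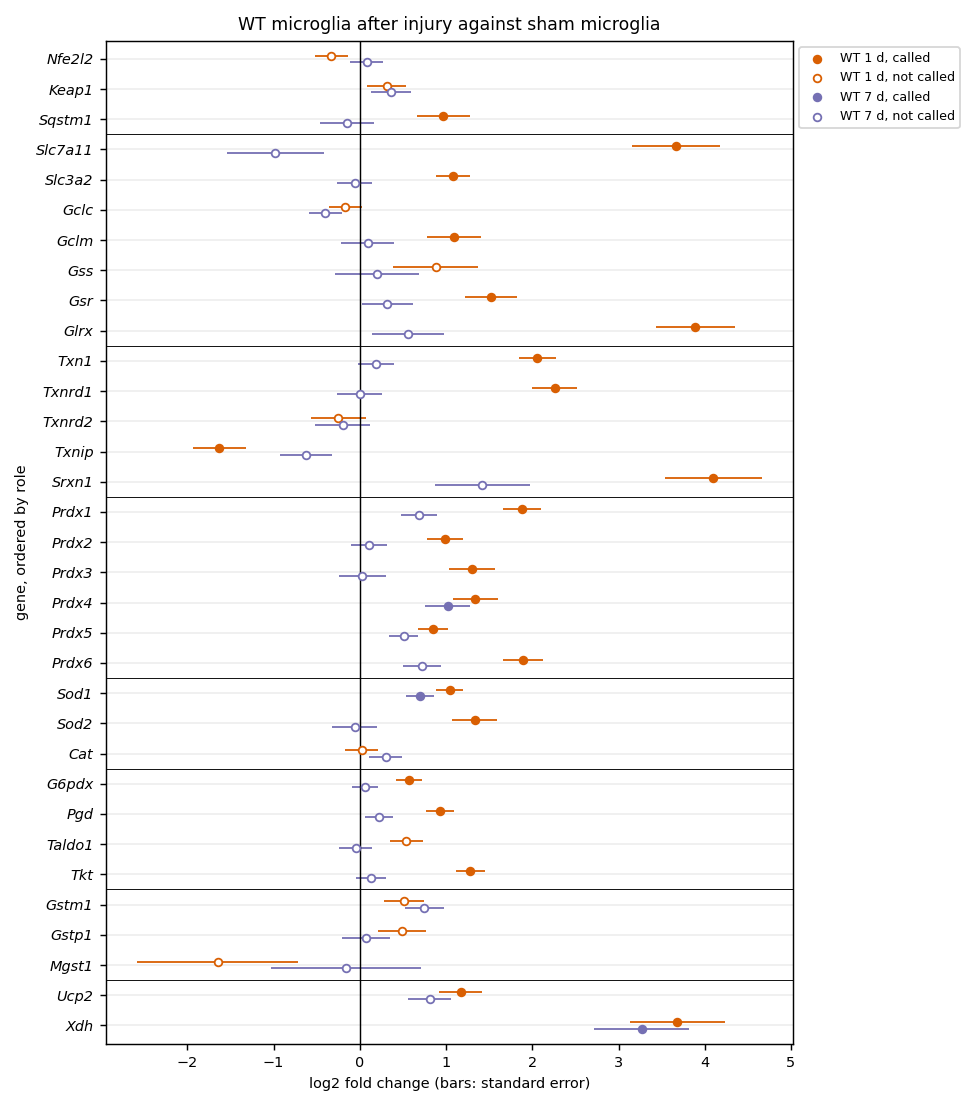
Log2 fold change (horizontal axis, bars are standard errors) of 33 genes in WT microglia at 1 d (orange) and 7 d (purple) against sham microglia. Filled points passed an adjusted p of 0.05. At 1 d, 22 of these filled points lie to the right of 0 and Txnip lies to the left, and at 7 d only Sod1, Prdx4 and Xdh are filled.

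Other values moved with this comparison. Of 8 microglial markers 6 fell, with a median log2 fold change of -1.77, while 1 of 8 monocyte markers rose and 1 of 10 neutrophil markers fell. Monocyte markers summed to 156, 152 and 86.1 CPM in the injured libraries, above each sham library, and ribosomal RNA took 50.61% to 58.54% of counts against 43.44% to 47.84%. With the mean of monocyte and neutrophil markers as a covariate in the microglia libraries, 23 genes were called, and with ribosomal RNA genes left out, also 23. Without sham replicate 1 the count was 20, without sham replicate 3 it was 24, and without WT replicate 3 it was 20.

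Promoters of the set were searched for 2 short motifs, the core of the antioxidant response element, TGACNNNGC, and the AP-1 site, TGANTCA, on both strands. The windows were RefSeq promoters on GRCm38.p6, from 250 bases before to 50 after the start site, and 32 of the 36 genes had one, with Gsr, Gclc, Xdh and Prdx6 the others. The core was found in 11 of the 32 genes (34.4%), against 12.4% of 32851 promoters and 14% of 27025 genes. Among the genes that rose at 1 d in WT mice, 8 of 19 with a window held it, and among the others 3 of 13. The AP-1 motif was found in 5 of the 32 genes (15.6%), Glrx, Srxn1, Prdx1, Gstp1 and Mgst2, against 7.81% of promoters and 8.97% of genes. A match describes these letters in this window and is not a measured binding site. The genes were chosen around NRF2 and its antioxidant response, so the share with the core is not independent of that choice.

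The stretches below show matches in 5 genes that rose, each read 5′ to 3′ on the gene's strand with the matched bases in capitals. In Txnrd1 (chr10:82859099-82859137) and Sod1 (chr16:90220691-90220729) the capitals mark the antioxidant response element core, which lies on the opposite strand and is printed as its reverse complement. In Prdx1 (chr4:116685451-116685489) that core overlaps an AP-1 match. In Glrx (chr13:75839772-75839808) and Srxn1 (chr2:152105407-152105500) the capitals mark AP-1 matches, of which Srxn1 has a pair. The core match of Srxn1 lies after its start site and is not in the stretch.
Txnrd1: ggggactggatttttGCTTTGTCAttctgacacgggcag
Prdx1: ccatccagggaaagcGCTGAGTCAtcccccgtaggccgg
Sod1: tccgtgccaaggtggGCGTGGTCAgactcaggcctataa
Glrx: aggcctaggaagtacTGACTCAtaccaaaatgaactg
Srxn1: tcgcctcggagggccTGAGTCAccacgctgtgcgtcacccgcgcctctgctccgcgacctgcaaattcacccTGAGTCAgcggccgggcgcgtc

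Microglia from Fgg γ390–396A mice at 1 d were set against the same sham libraries, so this comparison and the one before it share their controls. In these mice 17 of the 36 genes rose and 1 fell, with 9.79% of all genes called, 7.6% higher and 2.19% lower, and 18.5% of those at 1 CPM or more. Libraries did not overlap for 19 of the 36 genes and for 29% of all genes. The median log2 fold change was 0.72. Txn1 had 45.1, 57.6 and 65.4 CPM, above every sham library (log2 fold change 1.61, standard error 0.21, adjusted p = 4.54e-05). Tkt, transketolase, had 28.2, 38.6 and 32.7 CPM against 15.5, 12.5 and 13.8 CPM, also apart (1.25, standard error 0.17, adjusted p = 6.25e-05). Txnrd1 had 10.9, 17.7 and 16.8 CPM (1.66, adjusted p = 0.000204), and Txnip fell to 108, 53.5 and 62.1 CPM (-1.37, adjusted p = 0.00486), both without overlap.

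All 6 peroxiredoxins rose in these mice too, by 0.70 (Prdx2) to 1.41 (Prdx1) on the log2 scale, as did Sod1 by 0.85 and Sod2 by 0.89. The calls of Prdx2 and Prdx3 were lost without any one sham library, without Fgg γ390–396A replicate 2 or 3, and with DESeq2's size factors. The other genes that rose were Glrx (2.89), Srxn1 (2.54), Xdh (2.53), Ucp2 (0.92), Pgd (0.85) and Slc3a2 (0.75). The calls of Sod2, Ucp2 and Slc3a2 were likewise lost without sham replicate 1 or 2, or without Fgg γ390–396A replicate 2 or 3. Slc7a11 had 1.64, 3.67 and 3.29 CPM, all above the sham libraries, but its log2 fold change of 1.29 did not pass (adjusted p = 0.115). Gsr had 0.74 (adjusted p = 0.14), Gclm 0.48 (adjusted p = 0.409), G6pdx 0.41 (adjusted p = 0.106) and Sqstm1 0.03 (adjusted p = 1). Nfe2l2 had -0.24 and Keap1 -0.02, and neither passed. Of the microglial markers 4 of 8 fell, with a median of -0.95, and monocyte markers summed to 105, 36.1 and 41.6 CPM. The count of 18 was 13 without sham replicate 1, 2 or Fgg γ390–396A replicate 2 or 3, 18 without sham replicate 3, 19 with the marker covariate and 10 with a log2 fold change above 1 required as well.

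**Figure D3:**
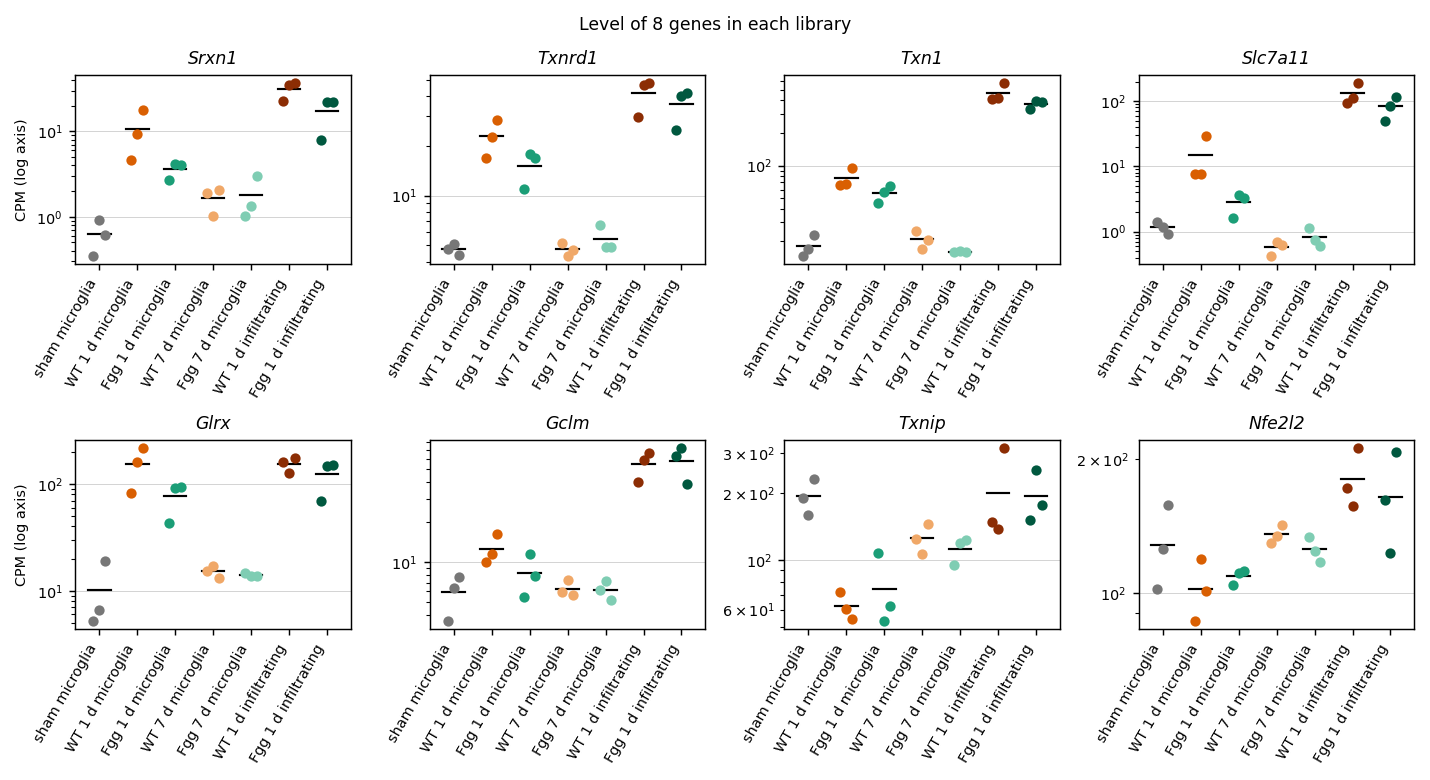
Level in each library (points, CPM on a log axis) of 8 genes in the 7 groups, with the group mean as a bar. Txn1, Txnrd1, Srxn1, Glrx and Slc7a11 rise from sham to WT 1 d microglia and lie lower at 7 d, Txnip shows the opposite order, and Nfe2l2 in microglia stays within 86.5 to 158 CPM.

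By 7 d, 3 of the 36 genes were above sham controls in WT mice, where 2.69% of all genes were called, 2.42% higher and 0.265% lower, and 5.14% of those at 1 CPM or more. Libraries did not overlap for 13 of the 36 genes and for 20.1% of all genes. Xdh had 4.06, 3.66 and 4.1 CPM, far above the sham libraries and nearly equal to one another (log2 fold change 3.27, standard error 0.55, adjusted p = 0.00187). Sod1 had 184, 224 and 190 CPM (0.70, standard error 0.16, adjusted p = 0.0174) and Prdx4, the peroxiredoxin of the endoplasmic reticulum, 28.6, 25.6 and 16 CPM against 10, 9.53 and 15.1 CPM (1.02, standard error 0.26, adjusted p = 0.0385). For Prdx4 the lowest injured library was close to the highest sham library. Gstm1 at 20.4, 23.4 and 21.9 CPM lay above all sham libraries (12.7 to 13.6 CPM) without passing (0.75, adjusted p = 0.0984). Txn1 had a log2 fold change of 0.19 and Txnrd1 of 0.00. Of 6 oligodendrocyte markers 2 were higher, with a median log2 fold change of 1.67 and sums of 47.1 to 74.8 CPM against 25.2 to 31 CPM, and ribosomal RNA took 50.96% to 55.66% of counts against 43.44% to 47.84%. The part of either was not tested. Without WT replicate 2 at 7 d, or without sham replicate 1 or 2, 1 gene was called, Xdh. DESeq2's Wald test called 8.

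In Fgg γ390–396A mice at 7 d, 0 of the 36 genes passed edgeR's test and DESeq2 called 1. An unadjusted p under 0.05 from edgeR was found for 6 of the 36 and for 1808 of the 23815 genes tested. Over all genes 0.886% were called, 0.831% higher and 0.0546% lower, and libraries did not overlap for 7 of the 36 genes and for 15.6% of all genes. Xdh was closest, with 1.33, 2.33 and 2.19 CPM, all above the sham libraries (log2 fold change 2.25, standard error 0.54, adjusted p = 0.0527). Without sham replicate 3, or without replicate 1 of WT or Fgg γ390–396A microglia at 1 d, 1 gene passed. Txn1 stood at 16.1, 16.5 and 15.9 CPM, within the sham range.

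Between 1 d and 7 d, 17 of the 36 genes fell and 1 rose in WT microglia. Of all genes 10.3% were called, 3.7% higher and 6.6% lower, and of those at 1 CPM or more 19.5%. Libraries of the 2 times did not overlap for 21 of the 36 genes and for 29.4% of all genes. This comparison and the one with sham controls share the libraries at 1 d. Slc7a11 fell to 0.43, 0.691 and 0.618 CPM, below each library at 1 d and each sham library (log2 fold change -4.65 from 1 d, standard error 0.55, adjusted p = 2.7e-05). Against sham controls that level had a log2 fold change of -0.98 and did not pass (adjusted p = 0.514). Txn1 fell to 25.1, 17.1 and 20.6 CPM (-1.87, standard error 0.21, adjusted p = 2e-05) and Txnrd1 to 5.21, 4.35 and 4.71 CPM (-2.26, standard error 0.26, adjusted p = 2.36e-05), both without overlap with 1 d. Txnip rose to 125, 106 and 146 CPM (1.01, standard error 0.30, adjusted p = 0.0355). Glrx fell by 3.32 on the log2 scale, Srxn1 by 2.67, Sod2 by 1.39, and Prdx1, Prdx2, Prdx3 and Prdx6 by 0.87 to 1.28. Xdh (-0.41), Prdx4 (-0.32), Prdx5 (-0.34), Sod1 (-0.34) and Ucp2 (-0.36) did not pass. Of 8 microglial markers 4 rose as well, with a median of 0.90 and sums of 2740 to 4230 CPM at 1 d and 5980 to 6840 CPM at 7 d, while monocyte markers summed to 86.1 to 156 CPM and 44.1 to 82.7 CPM. The part of these in the lower antioxidant genes was not tested. The count of 18 was 13 without WT replicate 3 at 1 d or at 7 d, and the rise of Txnip did not pass without either of these (0.87 and 0.89, adjusted p = 0.19 and 0.13).

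In Fgg γ390–396A microglia 11 genes fell and 0 rose between these times, with 5.64% of all genes called, 1.08% higher and 4.56% lower. Of the genes at 1 CPM or more, 10.8% were called. Libraries did not overlap for 21 of the 36 genes and for 27.3% of all genes. Txn1 fell from 45.1, 57.6 and 65.4 CPM to 16.1, 16.5 and 15.9 CPM (log2 fold change -1.79, adjusted p = 7.51e-05). Tkt fell to 15.5, 13.6 and 15.4 CPM (-1.16, adjusted p = 0.000343) and Txnrd1 to 6.68, 4.88 and 4.88 CPM (-1.46, adjusted p = 0.00142). None of the 3 overlapped between the times. Glrx (-2.44), Slc7a11 (-1.75), Sod2 (-1.24), Prdx1 (-1.10), Prdx6 (-0.99), Prdx2 (-0.94), Slc3a2 (-0.81) and Pgd (-0.70) also fell. The call of Slc7a11 held in only 16 of 30 alternatives. Its adjusted p from edgeR reached 0.2 without Fgg γ390–396A replicate 2 at 1 d. Without Fgg γ390–396A replicate 2 at 1 d the count was 7.

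The genotypes were compared directly in microglia at 1 d. None of the 36 genes passed edgeR's test at an adjusted p under 0.1, where 0.0546% of all genes did, and DESeq2 called 1, Slc7a11. An unadjusted p under 0.05 from edgeR was found for 11 of the 36 and for 1209 of the 23815 genes tested. Same-numbered libraries deviated together in this comparison, which was seen in these same data and is not given by the sources. With the replicate number as a block over all 21 libraries, edgeR's test called 1, also Slc7a11 (log2 fold change -2.25, adjusted p = 0.069). That block sets 1 shift per number for all 7 groups, so it is not a test of paired libraries at 1 d. Libraries of the genotypes did not overlap for 6 of the 36 genes, all lower in Fgg γ390–396A mice, and for 8.72% of all genes. The fold changes leaned one way: 30 of the 36 genes, and 28 of the 33 at 1 CPM or more, were lower in Fgg γ390–396A mice, against 48% of the 12302 genes at that level. The median log2 fold change of the 36 was -0.32, and -0.33 with Nqo1, at 0 in the Fgg γ390–396A libraries, at its bound and Gsta3, at 0 in both groups, left out. The genes of a pathway do not vary independently, and the lean of the set was not tested.

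Slc7a11 had the smallest adjusted p of the set. WT microglia had 7.67, 7.71 and 28.9 CPM and Fgg γ390–396A microglia 1.64, 3.67 and 3.29 CPM, so that each WT library was above each Fgg γ390–396A library. Its log2 fold change was -2.38 (standard error 0.47, unadjusted p = 6.4e-05, adjusted p = 0.101 in edgeR), and it passed in 10 of 30 alternatives, DESeq2 among them (adjusted p = 0.00027). WT replicate 3 carried much of the size: without it the log2 fold change was -1.45 and the adjusted p 1, and without WT replicate 1 they were -2.69 and 0.026. Of the WT microglia at 1 d, that library also had the lowest sum of microglial markers (2740 CPM) and of monocyte markers (86.1 CPM) and the highest share of ribosomal RNA (58.54%), and the part of these was not tested. Adding the markers of infiltrating cells as covariate gave -2.54 (adjusted p = 0.17). Slc7a11 lies on chromosome 3, as does Fgg, at a distance of 33.1 Mb. The same chromosome carries Gclm, Txnip, Gstm1 and Mgst2, and for these genes linkage to the altered locus and the allele itself cannot be told apart.

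Gstm1, a cytosolic glutathione transferase, had 9.58, 11.6 and 11.9 CPM against 11.1, 22.6 and 22.1 CPM in WT mice, which overlap (log2 fold change -0.75, standard error 0.23, adjusted p = 0.761). Without WT replicate 1 it was -1.02 (adjusted p = 0.035). Srxn1 had 2.67, 4.15 and 4.02 CPM against 4.66, 9.34 and 17.8 CPM, with no overlap (-1.56, standard error 0.49, adjusted p = 0.813). Glrx had 43.6, 91.9 and 93.7 CPM against 82, 160 and 215 CPM, which overlap. Glrx, Sqstm1 (-0.93), Gsr (-0.77), Txnrd1 (-0.59), Prdx6 (-0.52), Prdx1 (-0.47), Txn1 (-0.45) and Xdh (-1.15) had an unadjusted p between 0.0076 and 0.041 and an adjusted p of at least 0.861. Tkt (-0.03), Pgd (-0.08), Prdx5 (-0.08) and Nfe2l2 (0.09) had log2 fold changes under 0.1 in size, with standard errors of 0.16 to 0.19. Dissociation genes summed to 1000 to 1190 CPM in WT and 311 to 973 CPM in Fgg γ390–396A microglia, and ribosomal RNA took 50.61% to 58.54% and 47.1% to 52.39% of counts. Microglial markers summed to 2740 to 4230 CPM in WT and 4810 to 6230 CPM in Fgg γ390–396A microglia, without overlap. Monocyte markers summed to 86.1 to 156 CPM and 36.1 to 105 CPM, and neutrophil markers to 177 to 891 CPM and 106 to 450 CPM, and no gene of these 3 lists was called. The part of any of these in the lean was not tested.

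**Figure D4:**
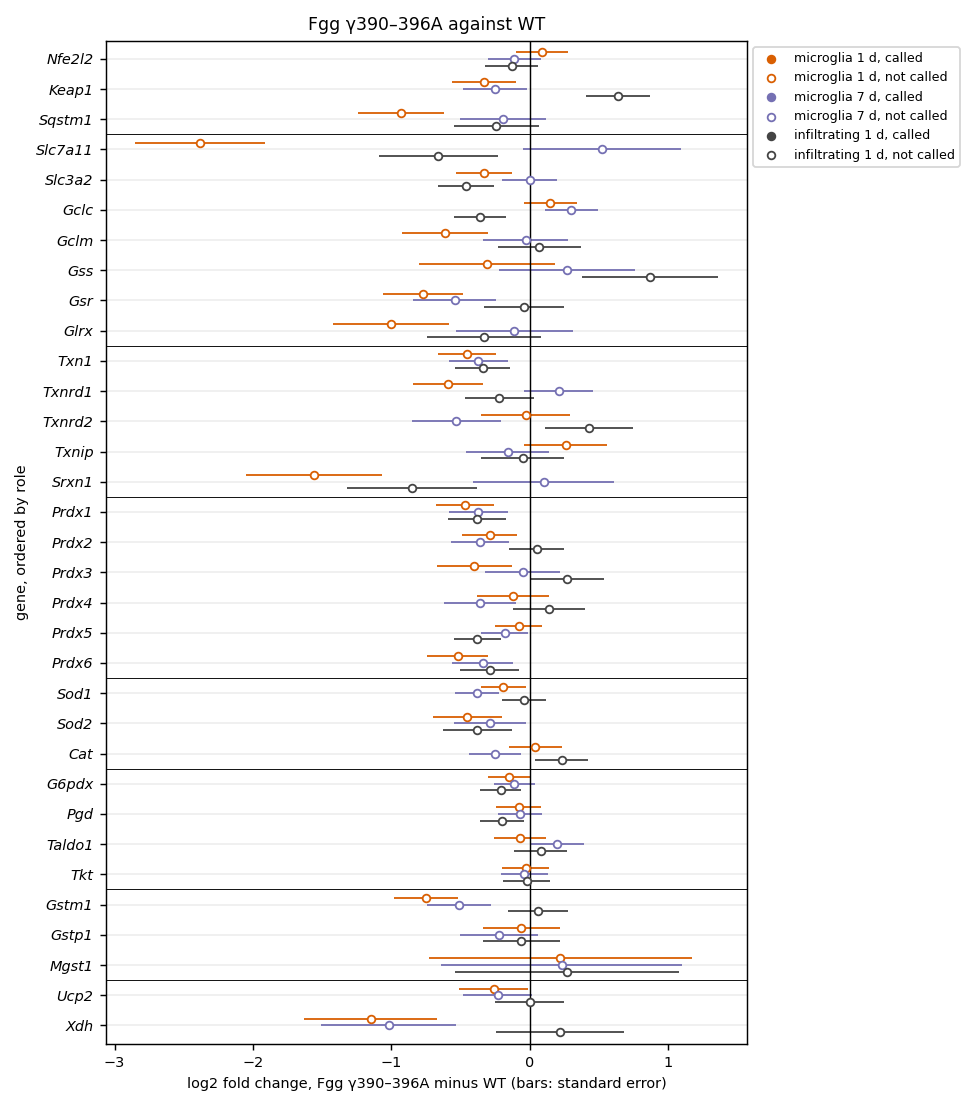
Log2 fold change of Fgg γ390–396A against WT mice (horizontal axis, bars are standard errors) for 33 genes in microglia at 1 d (orange), microglia at 7 d (purple) and infiltrating cells at 1 d (black). All points are open because none passed an adjusted p of 0.1, and most orange points lie left of 0, with Slc7a11 farthest at -2.38.

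At 7 d the genotypes differed in 0 of the 36 genes by edgeR's test, with 0 called by DESeq2 and 0.0378% of all genes called. An unadjusted p under 0.05 from edgeR was found for 3 of the 36 and for 795 of the 23815 genes tested. Libraries did not overlap for 10 of the 36 genes, 8 of them lower in Fgg γ390–396A mice, and for 11.1% of all genes. As at 1 d, most fold changes leaned one way. In Fgg γ390–396A mice 26 of the 36 genes were lower, with a median log2 fold change of -0.13. Of the 33 genes at 1 CPM or more 26 were lower, against 48.6% of the 12302 genes at that level. This lean was not tested either. The 3 genes with the smallest p were Sod1 (160, 123 and 175 CPM against 184, 224 and 190 CPM in WT mice), Gstm1 (13.4, 18.2 and 14.5 against 20.4, 23.4 and 21.9 CPM) and Xdh (1.33, 2.33 and 2.19 against 4.06, 3.66 and 4.1 CPM). In each of them every Fgg γ390–396A library lay below every WT library. Their log2 fold changes were -0.38, -0.51 and -1.02, and each had an adjusted p of 1. The difference between the genotype effects at 7 d and 1 d passed for 0 genes of the set and 0% of all genes. It had an unadjusted p under 0.05 in 3 of the set and in 653 of the 23815 genes tested. Its smallest p was for Slc7a11 (log2 difference 2.90, standard error 0.73, unadjusted p = 0.00079, adjusted p = 1), which DESeq2 called with an adjusted p of 0.038. Srxn1 (1.66) and Txnrd1 (0.80) had the next smallest p.

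Infiltrating myeloid cells were set against microglia of the same genotype at 1 d, as unpaired groups. Whether same-numbered libraries of the cell types came from the same brains is not given in the sources. In WT mice 18 of the 36 genes were higher and 1 lower, where 15.7% of all genes were called, 7.56% higher and 8.12% lower, and 27.9% of those at 1 CPM or more. In Fgg γ390–396A mice 23 were higher and 1 lower, where 21.4% of all genes were called, 9.33% higher and 12.1% lower, and 35.3% of those at 1 CPM or more. The cell types did not overlap for 23 of the 36 genes in WT and 28 in Fgg γ390–396A mice, against 29.2% and 32.1% of all genes. The median log2 fold change was 0.82 in WT and 1.28 in Fgg γ390–396A mice, against -0.09 and -0.15 for genes at 1 CPM or more. With Gsta3, and in Fgg γ390–396A mice also Nqo1, at the bound set by the floor these medians were 0.79 and 1.10. These comparisons share no library, and 18 genes were higher in both, which is all 18 called in WT mice and 18 of the 23 in Fgg γ390–396A mice.

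Prdx6, which reduces phospholipid hydroperoxides, stood at 220, 307 and 376 CPM in WT infiltrating cells and at 216, 266 and 258 CPM in those of Fgg γ390–396A mice. Microglia had 19.9, 24.2 and 26.9 CPM and 13.3, 16.3 and 19.9 CPM, so the groups were far apart (log2 fold changes 3.67 and 3.90, adjusted p = 3.61e-08 and 9.65e-09). Txn1 had 413, 416 and 575 CPM in WT and 334, 391 and 385 CPM in Fgg γ390–396A infiltrating cells, the highest levels of a gene of the thioredoxin system (log2 fold changes 2.61 and 2.72, adjusted p = 2.17e-07 and 9.63e-08). Prdx5, a peroxiredoxin of mitochondria and peroxisomes, had 224, 174 and 274 CPM in WT mice (2.06, adjusted p = 2.99e-07). Gstm1 had 122, 105 and 106 CPM in Fgg γ390–396A mice (3.33, adjusted p = 4.43e-08). In each case every infiltrating library lay above every microglia library.

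Other genes higher in both genotypes included Mgst1 (log2 fold changes 5.31 in WT and 5.35 in Fgg γ390–396A mice), Slc7a11 (3.16 and 4.88), Gsr (2.56 and 3.29), Gclm (2.13 and 2.81), Xdh (1.76 and 3.13), Srxn1 (1.57 and 2.28), Taldo1 (1.57 and 1.73) and Prdx1 (1.62 and 1.71). Nfe2l2 was higher too, by 0.81 and 0.59, and Txnip by 1.69 and 1.38. Nqo1, the quinone reductase often used as a readout of NRF2, had 18, 28 and 68 counts in WT and 3, 18 and 129 counts in Fgg γ390–396A infiltrating cells. It had 0, 0 and 7 counts in WT microglia and 0 in all 3 Fgg γ390–396A microglia libraries at 1 d. In the latter mice it was therefore at least 66.9-fold higher in infiltrating cells, taking 3 counts over the group as the floor, and it passed there (adjusted p = 0.018) but not in WT mice (adjusted p = 0.168). Of the 150 counts 129 came from infiltrating replicate 3, without which the bound was 14.7-fold and the call was lost, as it was without Fgg γ390–396A microglia replicate 1 or 2 (highest adjusted p 0.067). Prdx4 was lower in infiltrating cells of WT mice (12.8, 23.9 and 14.4 against 25.6, 32.9 and 29.3 CPM, log2 fold change -0.78, adjusted p = 0.0445), and Gclc in those of Fgg γ390–396A mice (7.77, 12.1 and 8.57 against 14.4, 15.2 and 13.8 CPM, -0.60, adjusted p = 0.031). Both had groups without overlap, and both calls were lost when several single libraries were left out, with Prdx4 at -0.61 (adjusted p = 0.18) without WT infiltrating replicate 1 and Gclc at -0.38 (adjusted p = 0.23) without Fgg γ390–396A infiltrating replicate 1.

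**Figure D5:**
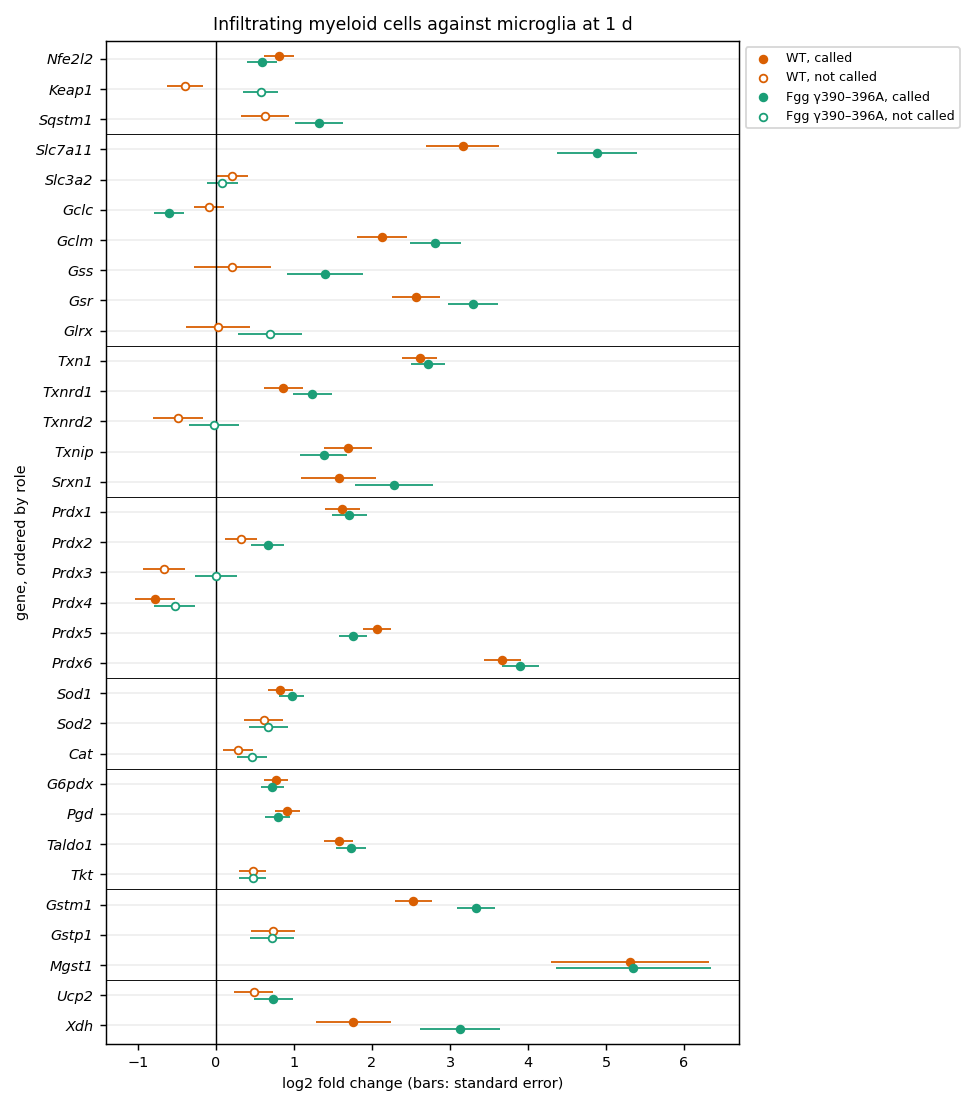
Log2 fold change of infiltrating myeloid cells against microglia at 1 d (horizontal axis, bars are standard errors) for 33 genes in WT (orange) and Fgg γ390–396A mice (green). Filled points passed an adjusted p of 0.05, and nearly all of them lie right of 0, up to 5.35 for Mgst1.

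All 8 microglial markers were lower and all 8 monocyte markers higher in infiltrating cells of both genotypes, and monocyte markers summed to 1920 to 2320 CPM there. Neutrophil markers summed to 3630 to 13400 CPM in WT and 2820 to 6000 CPM in Fgg γ390–396A infiltrating cells, with 5 and 7 of 10 called higher. In all 6 libraries labelled macrophages this sum was above that of the monocyte markers, though the sums cover 10 and 8 different genes. They do not give the share of a cell type, and which cells carried this RNA was not tested. Dissociation genes summed to 1980 to 5160 CPM there, above every microglia library. The share of either in the higher antioxidant genes was not tested.

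Between genotypes, infiltrating cells differed in 0 of the 36 genes by edgeR's test, with 0.495% of all genes called. An unadjusted p under 0.05 from edgeR was found for 3 of the 36 and for 2749 of the 23815 genes tested. Libraries did not overlap for 6 of the 36 genes and for 8.02% of all genes. DESeq2 called 1, Keap1 (adjusted p = 0.062). Keap1 had 10.8, 10.6 and 11.4 CPM in Fgg γ390–396A mice against 6.97, 7.32 and 6.76 CPM in WT mice, with narrow groups that did not overlap (log2 fold change 0.64, standard error 0.23, adjusted p = 0.293 from edgeR). Slc3a2 had 74.5, 105 and 114 CPM against 121, 129 and 155 CPM (-0.46, adjusted p = 0.392) and Prdx5 169, 193 and 155 CPM against 224, 174 and 274 CPM (-0.38, adjusted p = 0.413). The first pair of groups did not overlap and the second did. Slc7a11 had 50.3, 83.6 and 117 CPM against 94.5, 112 and 189 CPM (-0.66). The genotype effect in infiltrating cells minus that in microglia passed for 0 genes of the set and 0.0462% of all genes. It had an unadjusted p under 0.05 in 1994 of the 23815 genes tested and in 3 of the set. The 3 were Keap1 (0.97, adjusted p = 0.497 from edgeR), Slc7a11 (1.72, adjusted p = 0.528) and Gstm1 (0.81, adjusted p = 0.539). DESeq2 called 1 of these, Keap1 (1.03, adjusted p = 0.084).

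A further 46 genes of the pathway, listed by role from general knowledge, were read beside the 36. At 1 d, 19 of them rose and 3 fell in WT microglia, and 11 rose and 2 fell in Fgg γ390–396A microglia, where 16.7% and 9.79% of all genes were called. At 7 d 5 rose in WT and 0 were called in Fgg γ390–396A mice, against 2.69% and 0.886% of all genes. Of the 7 heme and iron genes among them, 6 rose and 1 fell at 1 d in WT mice. Hmox1, heme oxygenase 1, had 103, 78.7 and 169 CPM in WT and 37.3, 37.4 and 65.6 CPM in Fgg γ390–396A microglia against 12.1, 13.2 and 17.8 CPM in sham controls (log2 fold changes 3.02 and 1.70). No injured library of either genotype overlapped the sham libraries. Ftl1, the ferritin light chain, rose by 2.47 and 1.66, and Slc40a1, the iron exporter ferroportin, fell by 2.71 and 2.07. Infiltrating cells had 13 of the 46 higher and 2 lower in WT mice. Those of Fgg γ390–396A mice had 17 higher and 3 lower, and the shares of all genes called were 15.7% and 21.4%. Hmox1 in WT and Fgg γ390–396A infiltrating cells stood at 502, 793 and 707 CPM and 667, 656 and 566 CPM. Between genotypes 0 of the 46 passed edgeR's test in microglia at either time, and 1, Htatip2, was lower in infiltrating cells of Fgg γ390–396A mice (-1.58, adjusted p = 0.0626). For Hmox1, every WT microglia library at 1 d lay above every Fgg γ390–396A library. The authors, who used DESeq2, list Hmox1 among the genes decreased in Fgg γ390–396A microglia at 1 d. DESeq2's calls for the 46 are not given here.

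Some counts are uncertain because reads could be shared. A transcript of Gclm holds sequence like that of Ppia, an abundant gene, so the values of Gclm could include some of Ppia's reads. In the Ppia transcript that matched best, 52.6% of the 31-base words were also in Gclm. The best-matching transcript of Gstp2 shares 98.5% of its 31-base words with Gstp1, and Gstp2 had 4.54% of the counts of Gstp1. The pseudogene Txn-ps1 had 3.82% of the counts of Txn1. Exons of Txnip, Prdx5 and Sqstm1 overlap genes on the opposite strand over 19.4%, 19.1% and 17.3% of their length, and a library kit that does not record strand leaves such reads ambiguous. Keap1, Txnrd2, Cat, Gsta3, Gstp1 and Mgst2 were called in none of the 13 comparisons by edgeR's test, though DESeq2 or other settings called Keap1, Cat, Gstp1 and Mgst2 in at least 1. Gsta3 and Mgst2 had at most 4 and 174 counts in any library, which leaves little depth to see a difference.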

How the data were processed

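Microglia and infiltrating myeloid cells were profiled by bulk RNA-seq. The authors ran nf-core/rnaseq with default settings against GRCm38, quantified reads with salmon, and deposited gene-level expected counts, scaled so that gene length is divided out and each library sums to its mapped reads. The submitters' processing notes name R 4.2.0 and DESeq2 1.36.0, and the annotation release is not given in the sources used here. Symbols came from GENCODE M21, which matched 45143 of 45706 identifiers. The deposited values were rounded to whole counts. Tests used glmQLFit and glmQLFTest of edgeR 4.0.16 under R 4.3.3, with TMM factors, in one fit of 21 libraries with 1 mean per group, for the 23815 genes with at least 5 counts. The common biological coefficient of variation was 0.643, and TMM factors lay between 0.735 and 1.55. Calls were made at an adjusted p under 0.05, or under 0.1 between genotypes and for interactions, with no bar on the fold. The standard error was taken from the log2 fold change and its F statistic. Replicate libraries differed by more than counting noise would give if the scaled counts were reads (chi-square per degree of freedom at least 20). As they are not reads, this figure is only a rough guide.

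The 36 genes and the other lists were chosen with earlier results of these data known. Library values are given for up to 3 called genes per direction, those of smallest adjusted p in a comparison, and between genotypes for the 3 of smallest adjusted p whether called or not. Values of other genes, which illustrate a role or a limit, were chosen after their values were seen. The alternatives were DESeq2 1.42.0, its size factors, other filters, thresholds and subsets of libraries, removal of ribosomal RNA genes, a marker covariate, the replicate number as a block, summed Gstp genes, and leaving out each library. Deviations of same-numbered libraries from their group means correlated at 0.372, 0.151 and 0.104 between genotypes in microglia at 1 d, all above 0.1, and in no other comparison did all 3 pairs. This pairing comes from the data, as the sources give the numbers no shared day or batch. The scripts were tested on simulated data.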

Additional observations from a re-analysis of the deposited data

How the results depend on the processing

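Of 23 genes called at 1 d in WT microglia, 20 were called in every alternative, as were 12 of 18 in Fgg γ390–396A microglia, 0 of 3 at 7 d in WT mice, 13 of 18 and 6 of 11 between 7 d and 1 d, and 15 of 19 and 18 of 24 in infiltrating cells against microglia (WT first in each pair). No called gene changed direction in any alternative, while the direction of some genes that were not called did. Requiring a log2 fold change above 1 left 10 genes at 1 d in Fgg γ390–396A mice and 7 between 7 d and 1 d there. At 7 d in WT mice DESeq2 called 8 and an adjusted p under 0.01 left 1. At 7 d in Fgg γ390–396A mice DESeq2, its size factors, filterByExpr, no filter and the replicate block each gave 1, Xdh. Between genotypes in microglia at 1 d, DESeq2, its size factors, filterByExpr, no filter, removal of ribosomal RNA genes and the replicate block each gave 1, Slc7a11. DESeq2 also called 1 gene between genotypes in infiltrating cells and 1 in each test of a difference between genotype effects. The causes were not tested.

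Leaving out 1 library at a time gave 20 to 26 genes at 1 d in WT and 13 to 19 in Fgg γ390–396A microglia, 1 to 4 and 0 to 1 at 7 d, 13 to 20 and 7 to 14 between 7 d and 1 d, 16 to 20 and 18 to 28 in infiltrating cells against microglia, 0 to 2 between genotypes in microglia at 1 d, and 0 in the other comparisons of genotype. Over all 63 same-numbered pairs, those between genotypes at 1 d included, the mean r was 0.0216, and 11 of 21 libraries were closest to their own number. In infiltrating cells against microglia the pairs had r of 0.134, 0.166 and 0.0227 in WT mice. In Fgg γ390–396A mice they had -0.0133, 0.0516 and 0.00976. The sources do not say whether same-numbered libraries of these cell types came from the same brains. The main test treats them as unpaired. The replicate block gave 24 genes at 1 d in WT and 18 in Fgg γ390–396A mice, and, beside Xdh and Slc7a11 above, moved no count by more than 1.5 times. Depth limits Nqo1, Gsta3, Mgst2 and Mgst1, which had few or no counts in microglia.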
